A study of Mus musculus with 7 samples.

Results

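The RING finger ligases carried under an Rnf symbol described here were 80 of the 23930 genes measured in sorted muscle cells of mice that breathed room air or CO2-enriched air. Members were genes whose symbol begins with Rnf and a digit, so the rule itself uses names and no measured value, though it was set with earlier results of these data known. Of these, 61 had a mean of at least 1 RPM over the 7 libraries, RPM being reads scaled to a common library total, as did 12504 of all genes, and 19 lay under that mean. The members nearest to it were Rnf208 at a mean of 1.27 RPM and Rnf39 at 0.968 RPM.

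The study asked how chronic hypercapnia, a raised CO2 level, alters satellite cells, the stem cells of skeletal muscle. All mice carried an inducible Pax7-GFP reporter on a C57BL/6 background, in which a tamoxifen-activated Cre expressed from the Pax7 gene turns on a fluorescent protein in cells that express Pax7 and in their progeny. All received tamoxifen from 12 weeks of age and spent 4 weeks in normocapnia (3 libraries, NC1 to NC3) or hypercapnia (4 libraries, HC1 to HC4), and muscle was taken at 16 weeks. By the study's methods, cardiotoxin was injected into the leg muscles of both groups some days before collection, and GFP-positive mononuclear cells of both hind legs were sorted for RNA. The strain field of the labels carries a different number after C57BL in each sample, running on from the normocapnia to the hypercapnia samples, while their growth protocol speaks of C57/B6 littermates, so the strain was read as the same in both groups. The labels name no injury, and the heading of the deposited table carries a time in hours without saying what it refers to. The methods give days after injury, so the stage of repair of the sorted cells is not settled here. Nothing states that each library came from 1 animal, so p-values measure the spread between these libraries.

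A RING finger is a fold that holds zinc and brings an E2 enzyme loaded with ubiquitin to a substrate, which makes the protein an E3 ligase. Chains of ubiquitin then send the substrate to the proteasome or the lysosome, or, as linear chains or single ubiquitins on histones, carry a signal without degradation. The Rnf symbols are a naming series and not a family by descent: they cover Polycomb and DNA repair ligases, RING-between-RING enzymes that take the ubiquitin over before passing it on, and membrane ligases of the endoplasmic reticulum (ER), endosomes and lysosomes. Ligases of innate immunity and adaptors of receptor signaling also carry the name. In muscle, the RING ligase best known for protein loss is MuRF1, which is listed under the symbol Trim63 and is no member.

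Whether the 2 members called lower in hypercapnia and the 2 further ones whose groups did not overlap share a promoter sequence was examined in the RefSeq starts of the build GRCm38.p6, which matched 64 of the 80 members. For these 4, the 250 bases before the start are printed 5′ to 3′ on the strand of the gene, with CpG steps in capitals, because the count of CpG separates Rnf220 from the rest. They lie at chr4:117375462-117375711 (minus strand), chr6:71493627-71493876 (plus strand), chr9:108079302-108079551 (minus strand) and chr1:105356711-105356960 (minus strand).
Rnf220: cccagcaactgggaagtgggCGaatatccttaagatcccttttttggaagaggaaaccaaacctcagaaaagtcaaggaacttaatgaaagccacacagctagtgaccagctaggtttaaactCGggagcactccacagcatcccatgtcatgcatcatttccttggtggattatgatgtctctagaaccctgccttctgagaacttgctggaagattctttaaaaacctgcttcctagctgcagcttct
Rnf103: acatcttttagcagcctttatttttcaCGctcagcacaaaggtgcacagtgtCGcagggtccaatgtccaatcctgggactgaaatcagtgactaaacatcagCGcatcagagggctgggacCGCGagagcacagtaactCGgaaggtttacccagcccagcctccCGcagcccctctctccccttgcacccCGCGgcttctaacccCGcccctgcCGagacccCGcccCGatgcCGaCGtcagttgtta
Rnf123: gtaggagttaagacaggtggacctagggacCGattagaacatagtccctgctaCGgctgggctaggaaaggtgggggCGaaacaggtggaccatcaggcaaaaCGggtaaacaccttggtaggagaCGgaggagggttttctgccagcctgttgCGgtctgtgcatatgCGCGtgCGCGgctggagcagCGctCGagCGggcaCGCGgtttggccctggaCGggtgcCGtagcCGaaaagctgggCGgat
Rnf152: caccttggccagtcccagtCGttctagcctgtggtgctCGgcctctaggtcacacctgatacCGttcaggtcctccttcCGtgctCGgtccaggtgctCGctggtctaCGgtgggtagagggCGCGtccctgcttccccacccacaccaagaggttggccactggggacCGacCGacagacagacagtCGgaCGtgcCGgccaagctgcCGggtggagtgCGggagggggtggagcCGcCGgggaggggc
The Rnf220 stretch held 2 CpG steps, and 8.02% of genes averaging 1 RPM or more with a listed promoter held so few. Rnf103 held 15, Rnf152 18 and Rnf123 19, against a median of 16 over the 9523 such genes and 18 over the 49 members among them. Of 3 motifs searched on both strands, CCAAT was found in Rnf103 alone of the 4 and lay in 38.8% of the 49 members and in 39.3% of the 9523 genes. CACGTG was in none of the 4 and in 6.12% of the members against 9.41% of the genes, namely in Rnf44, Rnf145 and Rnf166. A pair of GAAA blocks with 2 bases between them, a motif of interferon-induced promoters and also in none of the 4, was in 4.08% of the members (Rnf121 and Rnf146) and 3.32% of the genes, and in Rnf182, which was hardly measured. None of the 3 motifs contains another. So the 4 members printed here shared none of the 3 motifs, and the shares in members and in all genes are given with no test of their difference.

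The 7 libraries held between 14527445 and 23388710 reads, so 1 read was worth 0.0428 to 0.0688 RPM and 3 reads, taken as the detection floor, 0.128 to 0.207 RPM. The reads were scaled to the library total and stem from 1 amplicon design per gene, so levels are compared between libraries of a gene, and the order of genes by RPM is not an order of transcripts. The defining markers of the labelled cell type were low in several libraries: Pax7 itself was at 268, 8.25 and 4.34 RPM across NC1 to NC3 and 21.5, 20.1, 79.5 and 59.7 RPM across HC1 to HC4. Summed over 10 satellite cell markers the level ran from 594 to 4303 RPM in normocapnia and 783 to 1650 RPM in hypercapnia, and none of the 10 was at 0. Summed over 12 macrophage markers it ran from 13350 to 36705 RPM in normocapnia and 21497 to 26600 RPM in hypercapnia. Lyz2 alone gave 8354 to 29108 RPM of it over the 7 libraries. The sum exceeded the satellite cell sum in every library, but over different amplicons, so their order is not one of transcripts or cells. The macrophage marker C1qa was at 0 in NC3 and HC3, and 1 of the 12 was called, Adgre1, higher in hypercapnia. Sums over other lists overlapped between the groups: neutrophil 263 to 1486 RPM with 1 of 8 called (Mmp8, higher), fibro-adipogenic 973 to 2372 RPM, myofiber 239 to 4411 RPM, lymphocyte 0.482 to 4.10 RPM and red blood cell, with 1 of 4 listed genes measured, 0.201 to 15.4 RPM. The endothelial sum was 62.7 and 49.8 RPM in HC1 and HC2, 523 and 399.7 RPM in HC3 and HC4 and 82.3 to 226 RPM in normocapnia. In bulk RNA, fewer cells of a type and less RNA per cell cannot be told apart, and the part of these other cells in the values below was not tested.

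NC3 stood apart. It had the fewest reads, the highest macrophage sum and the lowest satellite cell sum, and 16.6% of its reads fell on its 10 most abundant genes, against 8.36 to 12.1% elsewhere. Lyz2 made up 29108 of the 36705 RPM of that macrophage sum and was the only macrophage marker highest in NC3. Adgre1, C1qb, C1qc and Cd14 were lowest in NC3, so the sum does not rank its macrophage content. Among the 61 members at a mean of 1 RPM or more, NC3 was the lowest library in 27 and the highest in 8. It was at most 0.5 of every other library in 15 of the 61 members, against 24.5% of all genes at that mean, and at least 2 times every other library in 2, Rnf115 and Rnf220, against 2.81% of genes. Without NC3 the fold change of 15 of the 61 members turned its sign, so the value without NC3 is given beside each member's fold change below.

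**Figure D1:**
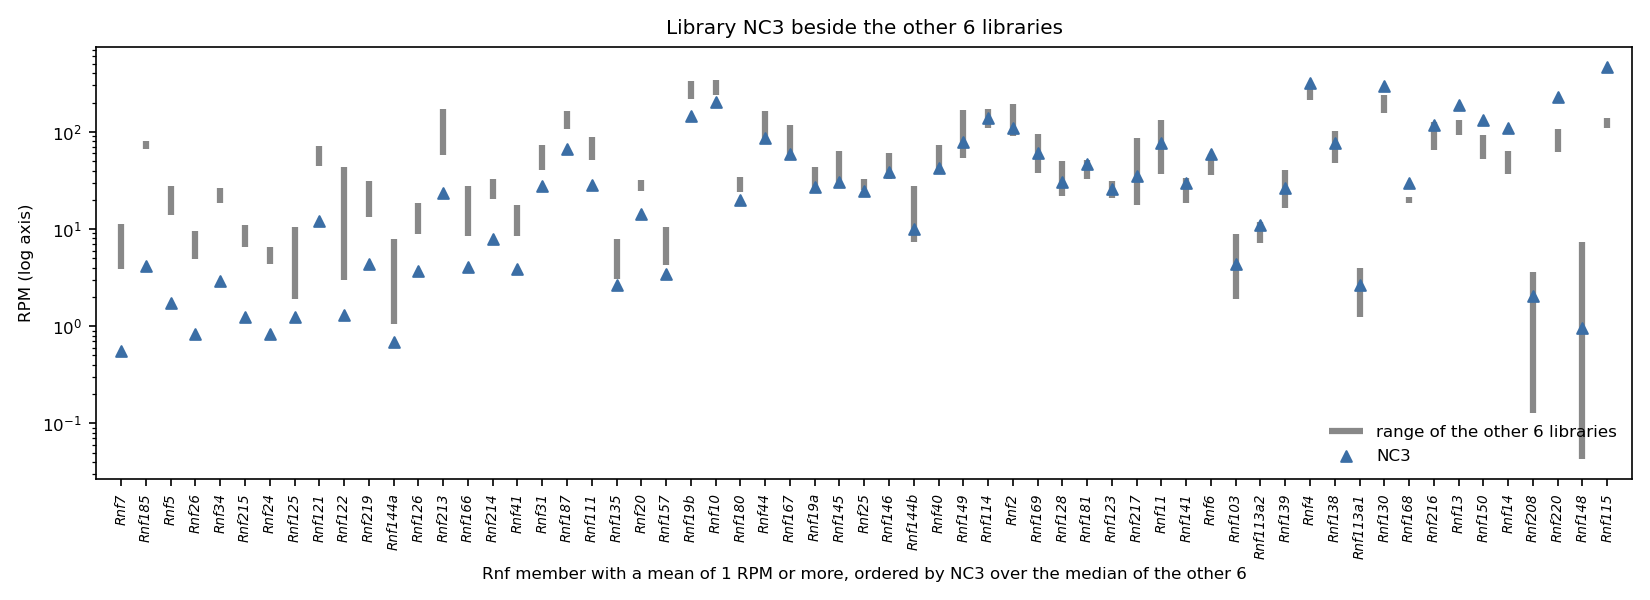
Level of each of the 61 members at a mean of 1 RPM or more, in RPM on a log axis, in NC3 (triangles) and over the other 6 libraries (bars from lowest to highest), ordered by the ratio of NC3 to the median of the others. Rnf7, Rnf185, Rnf5, Rnf26 and Rnf34 lie far under the bars, and Rnf220 and Rnf115 far above them.

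Hypercapnia came with lower RNA of 2 members, Rnf220 and Rnf103, and with a called increase of none. A call here is an unadjusted limma p under 0.05 with a fold change above 1.5 on log2(RPM + 1), a scale that understates the change of low genes. The count of 2 of 80 stands beside 2.57% of all genes called, 1.43% higher and 1.14% lower, and at a mean of 1 RPM or more 2 of 61 (3.28%) stands beside 4.75%, so the share of members called was not above that of genes in general. After Benjamini-Hochberg adjustment over all genes no member passed 0.05, and no gene of the table did, by limma. The lowest adjusted p of a member was 0.825. Before adjustment 4 members and 4.66% of all genes passed 0.05. Fitted to the recovered reads, edgeR called 3 members, all lower, beside 6.03% of genes called and 3.82% called lower. DESeq2 called 5, all lower, beside 6.25% and 3.76%. None of the 65 members tested by edgeR or the 77 tested by DESeq2 had an adjusted p under 0.05, and DESeq2 gave Rnf152 no adjusted p. Over all genes DESeq2 gave 29 an adjusted p under 0.05 and edgeR none. Without NC3, limma called 2 members, both lower, beside 2.57% of genes called and 1.59% called lower, and at a mean of 1 RPM or more 1 of 61 (1.64%) beside 4.65%. They were Rnf166 and Rnf223, while Rnf220 and Rnf103 were not called. Of the members called with all 7 libraries, Rnf220 belongs to the signaling group and Rnf103 to the ER and lysosome group.

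In 4 members the groups did not overlap, and in each the hypercapnia libraries were the lower ones: Rnf220, Rnf103, Rnf123 and Rnf152. Over all genes 4.83% had groups apart, 2.53% higher and 2.30% lower. At a mean of 1 RPM or more it was 3 of 61 members (4.92%) beside 7.72% of genes, with 3.63% of genes apart and lower. Without NC3, where only 2 normocapnia libraries are left, 15 of 80 members were apart (18.8%), 3 higher and 12 lower, beside 10.8% of all genes, 7.00% of them lower, and at a mean of 1 RPM or more 12 of 61 (19.7%) beside 16.1%. The 4 members named here were among the 15. The study's own protein ubiquitination list, drawn up on these same libraries, includes Rnf220 and Rnf152 and is no independent evidence of their direction.

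**Figure D2:**
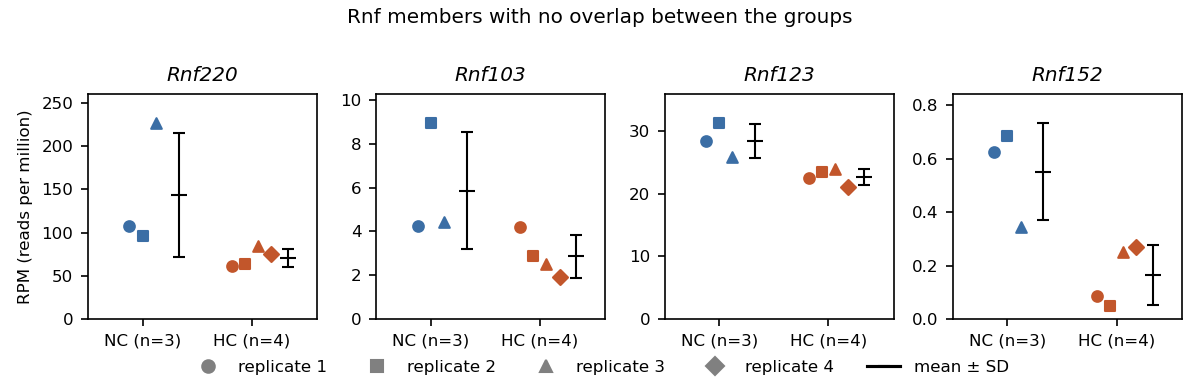
RPM per library of the 4 members whose normocapnia (blue, 3 libraries) and hypercapnia (orange, 4 libraries) values did not overlap, with the mean and SD of each group in black and each axis starting at 0. All 4 hypercapnia libraries lie under all 3 normocapnia libraries in each panel, narrowly so for Rnf103 (4.20 against 4.24 RPM).

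Rnf220, a ligase that acts in Wnt and sonic hedgehog signaling, had the larger log2 fold change of the 2 called members on log2(RPM + 1), though not by the ratio of means, which was 2.02 for it and 2.05 for Rnf103. It measured 108, 96.1 and 226 RPM across NC1 to NC3, against 61.3, 63.9, 83.9 and 75.0 RPM across HC1 to HC4. NC3 was more than 2 times every other library, yet NC1 and NC2 also lay above all 4 hypercapnia libraries. The group means were 143 ± 72.1 RPM (SD, n = 3) and 71.0 ± 10.4 RPM (SD, n = 4), with a log2 fold change of -0.91 ± 0.33 (SE) and a limma adjusted p of 0.915. Without NC3 the log2 fold change was -0.52 with an unadjusted p that still passed, but under the 1.5-fold limit, so the call rests on NC3 while the order of the groups does not. The p missed 0.05 without HC1, HC2 or HC4, with log2 fold changes of -0.84, -0.86 and -0.94.

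Rnf123, the catalytic subunit of the KPC complex that degrades the cell cycle inhibitor p27Kip1, differed little but evenly. It measured 28.4, 31.3 and 25.8 RPM across NC1 to NC3, against 22.4, 23.4, 24.0 and 21.1 RPM across HC1 to HC4, and each group spanned less than 1.3-fold. Its log2 fold change of -0.31 ± 0.08 (SE) and limma adjusted p of 0.825 came from the smallest unadjusted p of any member. That fit used no filter, and with one at a mean of 1 RPM the unadjusted limma p was 0.238. The unadjusted p was 0.102 by DESeq2 and 0.141 and 0.214 by edgeR with and without a filter. Limma also missed 0.05 with median-of-ratios scaling, quantile normalization or the replicate number as a block. It passed 0.05 with other pseudocounts, a prior variance that follows the mean or any 1 library left out. The mean was 1.25-fold lower, which is under the fold limit, and without NC3 the log2 fold change was -0.38. Rnf6, a nuclear ligase related to Rlim, was at 51.8, 59.3 and 58.6 RPM across NC1 to NC3, against 36.3, 39.2, 54.8 and 44.8 RPM across HC1 to HC4. HC3 lay among the normocapnia libraries of Rnf6 and the other 3 hypercapnia libraries under them (log2 fold change of -0.38 ± 0.15 (SE), -0.35 without NC3, and a limma adjusted p of 0.915).

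The remaining members of the signaling and receptor traffic group did not pass the test, and their groups overlapped with all 7 libraries. Without NC3, Rnf44 and Rnf146 were apart and lower and Rnf181 apart and higher. Rnf115, a ligase of vesicle and receptor traffic, measured 132, 128 and 469 RPM across NC1 to NC3, against 129.7, 109.6, 139 and 114 RPM across HC1 to HC4, so that NC3 alone set its log2 fold change of -0.70 ± 0.50, which was -0.08 without it. It was called lower by edgeR without a filter. Rnf7, the RING subunit RBX2 of cullin ligases, measured 9.19, 11.2 and 0.551 RPM across NC1 to NC3, against 11.0, 10.1, 3.87 and 4.74 RPM across HC1 to HC4. Here NC3 was far under every other library while the other normocapnia libraries sat at the level of HC1 and HC2, and the log2 fold change went from 0.43 to -0.51 without NC3. Rnf34, which binds caspases, was at 18.6 to 26.2 RPM in 6 libraries and 2.89 RPM in NC3.
Rnf146, which removes axin marked by poly(ADP-ribose) and so promotes Wnt signaling, measured 59.9, 55.5 and 38.5 RPM across NC1 to NC3, against 48.9, 47.6, 32.8 and 46.7 RPM across HC1 to HC4 (log2 fold change -0.21 ± 0.21, -0.40 without NC3). Rnf41, the ligase of the growth factor receptor ErbB3, had 9.01, 17.9 and 3.92 RPM across NC1 to NC3, against 11.3, 11.1, 9.43 and 8.46 RPM across HC1 to HC4, with its lowest value in NC3 and a log2 fold change of 0.17 ± 0.46 (-0.32 without NC3). The RING-H2 ligase Rnf44 measured 152, 165 and 86.3 RPM across NC1 to NC3, against 112, 134, 82.9 and 120.2 RPM across HC1 to HC4, with a log2 fold change of -0.22 ± 0.28 (-0.51 without NC3). The ribosome-linked Rnf10 and Rnf25 had log2 fold changes of 0.22 ± 0.18 (0.06 without NC3) and 0.18 ± 0.11 (0.11 without NC3), and Rnf181 of 0.20 ± 0.13 (0.31 without NC3). Rnf11, an adaptor of the A20 complex, was at -0.48 ± 0.44 (-0.54 without NC3), Rnf126 of the BAG6 pathway at 0.14 ± 0.59 (-0.53 without NC3) and the AP-1 coactivator Rnf187 at 0.14 ± 0.34 (-0.26 without NC3). Over the 15 members of this group at a mean of 1 RPM or more, 8 were higher and 7 lower with a median of 0.14, and without NC3 3 were higher and 12 lower with a median of -0.35. Rnf165 and the cardiac Rnf207 stayed under 0.9 RPM in every library.

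**Figure D3:**
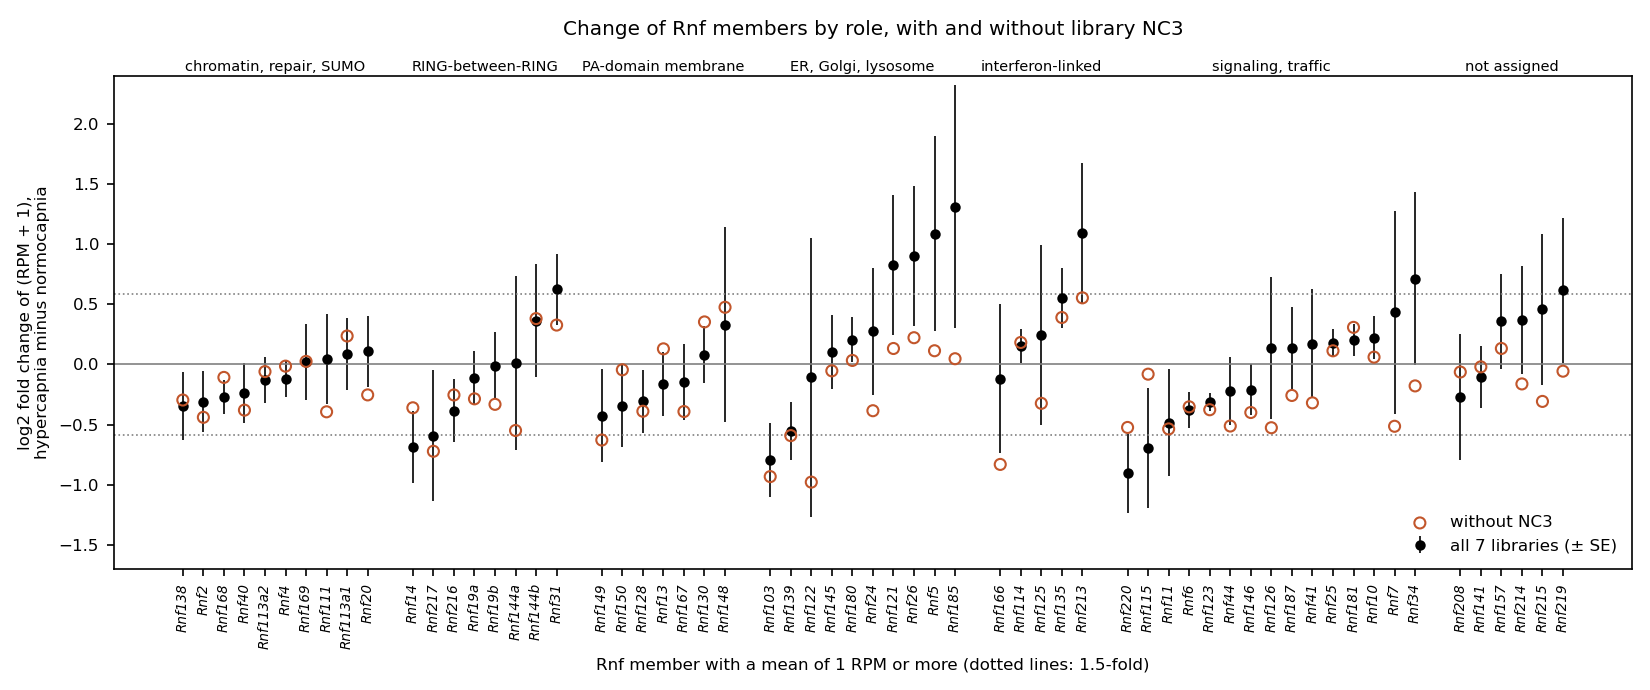
Log2 fold change of (RPM + 1), hypercapnia minus normocapnia, of the 61 members at a mean of 1 RPM or more, grouped by role, with all 7 libraries (black, bars are SE of the limma fit) and without NC3 (open circles); dotted lines mark 1.5-fold. Among the long bars are members in which NC3 was far off, such as Rnf185, Rnf5 and Rnf7, whose open circles lie near or under 0.

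Among the membrane ligases of the ER, Golgi and lysosome, Rnf103 was called lower. This ER ligase measured 4.24, 8.94 and 4.41 RPM across NC1 to NC3, against 4.20, 2.86, 2.50 and 1.90 RPM across HC1 to HC4, with a log2 fold change of -0.79 ± 0.31 (SE) and a limma adjusted p of 0.915. NC1, NC3 and HC1 lay within 0.3 RPM of each other, so the groups were apart by a narrow margin, and the call was kept in 4 of 17 alternative fits only. Without NC3 the log2 fold change was -0.93 and its p missed 0.05. Without NC2 it was -0.49 and was not called, and the call was also lost without HC2, HC3 or HC4 (-0.81, -0.76 and -0.67).
Rnf152, a lysosomal ligase that acts on the GTPase RagA and restrains mTORC1, was low everywhere: 0.624, 0.684 and 0.344 RPM across NC1 to NC3, against 0.0860, 0.05, 0.250 and 0.271 RPM across HC1 to HC4, from 46 reads in all. Each normocapnia library was above each hypercapnia library, with a log2 fold change of -0.41 ± 0.11 (SE), -0.51 without NC3, and a limma adjusted p of 0.877, but HC1 and HC2 were under the floor of 3 reads. With a pseudocount of 0.1 RPM, under quantile normalization and by DESeq2 it was called lower.
Rnf139 (TRC8), a sterol-sensing ER ligase, measured 40.1, 20.1 and 26.2 RPM across NC1 to NC3, against 16.7, 16.5, 20.9 and 20.6 RPM across HC1 to HC4. NC2 lay within the hypercapnia range, and the log2 fold change of -0.55 ± 0.24 (SE), -0.59 without NC3, and limma adjusted p of 0.915 made no call, although DESeq2, edgeR with a filter (not edgeR without one), quantile and median-of-ratios scaling called it lower.

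Several ER members read as higher through NC3. Rnf185 and Rnf5, which work in ER-associated degradation, measured 73.4, 69.4 and 4.20 RPM across NC1 to NC3, against 80.2, 76.6, 67.3 and 71.8 RPM across HC1 to HC4 for Rnf185, and 19.1, 20.2 and 1.72 RPM across NC1 to NC3, against 27.8, 25.0, 13.8 and 21.5 RPM across HC1 to HC4 for Rnf5. Their log2 fold changes of 1.31 ± 1.01 and 1.09 ± 0.81 were not called, and without NC3 they were 0.05 and 0.11. Rnf26, which anchors endosomes near the nucleus, went from 0.90 to 0.22, Rnf121 from 0.83 to 0.13 and Rnf24 from 0.28 to -0.39. Without NC3 the Rnf24 groups were apart, with hypercapnia lower. Its unadjusted limma p was then the smallest of any member, under the fold limit and with an adjusted p of 0.255. In 6 of the 10 measured members of this group NC3 was at most 0.5 of every other library. Rnf122 followed another library: it was at 43.8, 3.46 and 1.31 RPM across NC1 to NC3, against 3.34, 3.02, 14.8 and 8.60 RPM across HC1 to HC4, highest in NC1, as were Pax7 and the satellite cell, myofiber and lymphocyte sums and the red blood cell marker. The sterol-responsive Rnf145 (log2 fold change 0.10 ± 0.31, -0.05 without NC3) and Rnf180 (0.21 ± 0.19, 0.03 without NC3) were not called. Rnf186 and Rnf183 stayed under 2 RPM in every library, and Rnf182 was read in NC2 alone.

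The ligases linked to interferon and viral RNA sensing had a log2 fold change above 0 in hypercapnia for 4 of 5 members, none of them called, and for 3 of 5 without NC3, which was the lowest library of 4. Rnf213, a giant ATPase ligase induced by interferon, measured 58.2, 95.6 and 23.6 RPM across NC1 to NC3, against 171, 151, 77.8 and 73.3 RPM across HC1 to HC4. The 2-fold difference of its means came with overlapping groups, since NC2 lay above HC3 and HC4, and with a log2 fold change of 1.09 ± 0.58 (SE) and a limma adjusted p of 0.915. Without NC3 the log2 fold change was 0.55. HC1 and HC2 were about 2 times HC3 and HC4. Of the 12 macrophage markers, 9 were likewise higher in both HC1 and HC2 than in HC3 and HC4, among them Adgre1 at 392 and 429 against 151 and 184 RPM, whereas Itgam (1391 and 1509 against 1398 and 1461 RPM), Lyz2 and Csf1r were not. Between the groups 8 of the 12 had a log2 fold change above 0 and 4 (Lyz2, Csf1r, Ctss and Itgam) under 0, and the summed level was 26600, 23249, 21497 and 21786 RPM across HC1 to HC4. The part of these cells in the values of Rnf213 was not tested. Rnf135 (Riplet), which activates the RNA sensor RIG-I, measured 3.08, 5.47 and 2.69 RPM across NC1 to NC3, against 5.39, 7.84, 5.06 and 5.01 RPM across HC1 to HC4, with NC2 inside the hypercapnia range (log2 fold change of 0.55 ± 0.25 (SE), 0.39 without NC3, and a limma adjusted p of 0.915). Rnf125, which restrains the same sensor, had 10.4 RPM in NC1, 8.62 RPM in HC3 and 9.34 RPM in HC4 and at most 3.68 RPM in the other 4 libraries, with a log2 fold change of 0.24 ± 0.75 (-0.32 without NC3). Rnf114 overlapped between the groups, with 111 to 152 RPM in normocapnia and 134 to 173 RPM in hypercapnia. Rnf166 measured 16.4, 27.7 and 4.06 RPM across NC1 to NC3, against 13.1, 14.9, 10.6 and 8.53 RPM across HC1 to HC4, and its log2 fold change of -0.12 became -0.83 without NC3, where it was called lower. Leaving out NC2 made Rnf213, Rnf135 and Rnf31 calls for higher values, with log2 fold changes of 1.54, 0.80 and 0.94.

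**Figure D4:**
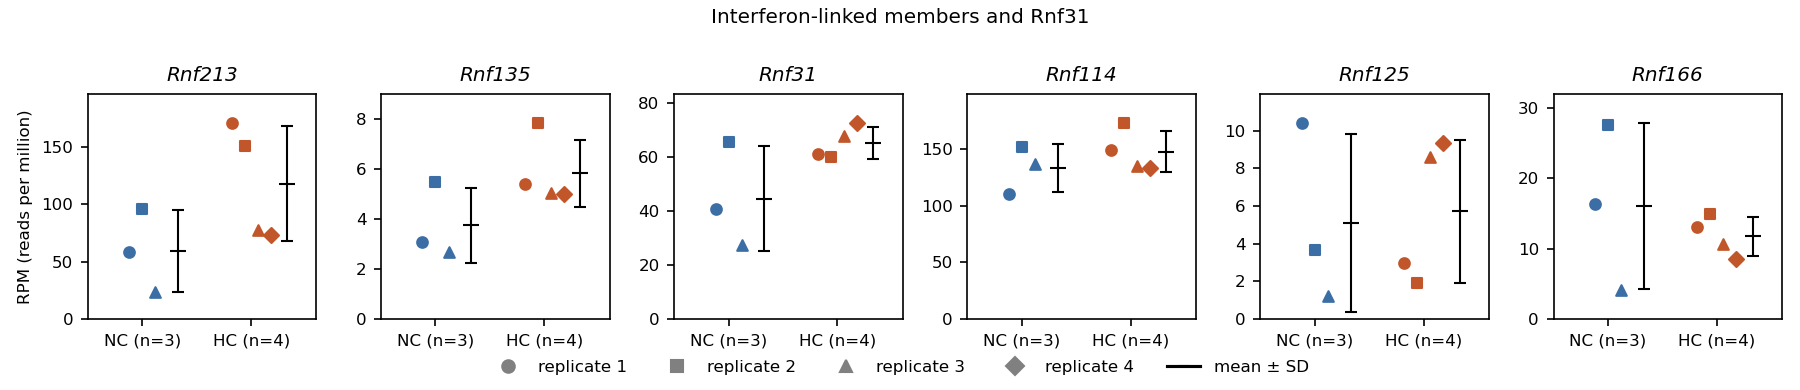
RPM per library of the 5 members linked to interferon and RNA sensing and of Rnf31, with normocapnia in blue (3 libraries), hypercapnia in orange (4 libraries), mean and SD in black and axes starting at 0. NC2 overlaps the hypercapnia values of Rnf213, Rnf135 and Rnf31, and NC3 is the lowest library in each panel except Rnf114.

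Of the 8 RING-between-RING ligases none was called. Rnf31, the catalytic subunit of the complex that builds linear ubiquitin chains in NF-kappaB signaling, measured 40.5, 65.6 and 27.4 RPM across NC1 to NC3, against 60.9, 59.9, 67.5 and 72.4 RPM across HC1 to HC4 (log2 fold change of 0.62 ± 0.29 (SE) and a limma adjusted p of 0.915). All hypercapnia libraries lay above NC1 and NC3, but NC2 lay among them, and without NC3 the log2 fold change was 0.33. Rnf14 measured 63.0, 47.0 and 108 RPM across NC1 to NC3, against 43.3, 39.1, 50.2 and 37.2 RPM across HC1 to HC4, with NC2 inside the hypercapnia range and NC3 highest (log2 fold change of -0.69 ± 0.30 (SE), -0.36 without NC3, and a limma adjusted p of 0.915). It was called lower by edgeR and DESeq2. Rnf19b, an enzyme of lymphoid and myeloid cells, was between 147 RPM in NC3 and 332 RPM in NC2, with hypercapnia libraries from 217 to 239.8 RPM and a log2 fold change of -0.01 ± 0.28 (-0.33 without NC3). Without NC3 its groups were apart, with hypercapnia lower. Rnf216 (-0.38 ± 0.26, -0.25 without NC3), Rnf217 (-0.59 ± 0.55, -0.72 without NC3), Rnf19a (-0.11 ± 0.22, -0.29 without NC3), Rnf144b (0.36 ± 0.47, 0.38 without NC3) and Rnf144a (0.01 ± 0.72, -0.55 without NC3) were not called by limma with all 7 libraries, values being log2 fold changes. Without NC1, Rnf216 was called lower at -0.69 (limma adjusted p of 0.180). Rnf144a and Rnf217 had their highest values in NC1, as did Pax7 and the satellite cell, myofiber and lymphocyte sums, at 7.81 and 87.0 RPM.

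None of the 10 chromatin, repair and SUMO-targeted ligases was called, with 4 higher and 6 lower, and 2 higher and 8 lower without NC3. Rnf2, which ubiquitinates histone H2A within Polycomb repressive complex 1, measured 192, 109 and 109.8 RPM across NC1 to NC3, against 114, 94.6, 90.2 and 130.4 RPM across HC1 to HC4, so NC1 stood above and the other 6 libraries overlapped (log2 fold change -0.31 ± 0.25, -0.44 without NC3). The H2B ligases Rnf20 and Rnf40 act as a pair. Rnf20 was at 31.6, 31.8 and 14.3 RPM across NC1 to NC3, against 26.3, 24.4, 28.5 and 26.7 RPM across HC1 to HC4 and Rnf40 at 44.4, 72.9 and 42.3 RPM across NC1 to NC3, against 43.9, 56.7, 36.4 and 39.5 RPM across HC1 to HC4, both overlapping between groups, with log2 fold changes of 0.11 ± 0.29 (-0.25 without NC3) and -0.24 ± 0.25 (-0.38 without NC3). Without NC3 the Rnf20 groups were apart, with hypercapnia lower, and so were those of Rnf111. Rnf168, which spreads H2A ubiquitin at DNA breaks, measured 20.9, 20.8 and 29.5 RPM across NC1 to NC3, against 18.7, 18.7, 21.4 and 18.4 RPM across HC1 to HC4, with NC3 highest and a log2 fold change of -0.27 ± 0.14 (-0.11 without NC3). Rnf169, which binds that mark, was at 0.02 ± 0.32 (0.03 without NC3) and Rnf138 at -0.35 ± 0.28 (-0.30 without NC3). Rnf4 and Rnf111 both recognise SUMO chains. Rnf4 measured 302, 215 and 319.5 RPM across NC1 to NC3, against 238, 245, 278 and 251 RPM across HC1 to HC4, and Rnf111, which also promotes TGF-beta signaling by degrading SnoN, 60.4, 87.5 and 28.6 RPM across NC1 to NC3, against 56.9, 57.5, 55.2 and 51.1 RPM across HC1 to HC4, again lowest in NC3. Their log2 fold changes were -0.12 ± 0.15 (-0.01 without NC3) and 0.04 ± 0.37 (-0.39 without NC3). The spliceosome-associated Rnf113a1 (0.09 ± 0.30, 0.24 without NC3) and its retrogene relative Rnf113a2 (-0.13 ± 0.19, -0.06 without NC3) can share amplicon reads and are uncertain as separate genes.

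The 9 ligases with a protease-associated domain are membrane ligases, and none was called. Rnf13 and Rnf167, of endosomes and lysosomes, measured 106, 100.2 and 190.0 RPM across NC1 to NC3, against 131, 128, 103 and 93.8 RPM across HC1 to HC4 for Rnf13, and 119, 83.4 and 59.3 RPM across NC1 to NC3, against 57.7, 62.3, 88.8 and 102 RPM across HC1 to HC4 for Rnf167. NC3 was the highest library of Rnf13 and close to the lowest of Rnf167, and their log2 fold changes were -0.16 ± 0.27 (0.13 without NC3) and -0.15 ± 0.32 (-0.39 without NC3). Rnf130 measured 155, 184 and 299 RPM across NC1 to NC3, against 240.5, 219, 196 and 212 RPM across HC1 to HC4, where NC1 and NC2 lay under all hypercapnia libraries and NC3 above them, so that its log2 fold change of 0.08 became 0.35 without NC3. Rnf128 (GRAIL), known from T-cell anergy, was at -0.31 ± 0.26 (-0.39 without NC3), Rnf149 at -0.43 ± 0.39 (-0.63 without NC3) and Rnf150 at -0.35 ± 0.34 (-0.04 without NC3). Rnf43, which removes Frizzled receptors and so damps Wnt signaling, was near 1 RPM or under it in every library (0.401, 0.641 and 0.207 RPM across NC1 to NC3, against 0.514, 0.352, 1.12 and 1.29 RPM across HC1 to HC4). The testis ligase Rnf148 had 7.31 RPM in HC4 and at most 1.03 RPM elsewhere, and Rnf133 was read in HC1 and HC4 alone.

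The 5 most abundant members by mean RPM were Rnf10, Rnf4, Rnf19b, Rnf130 and Rnf115, of which Rnf115 owed its place to NC3 and ranked under Rnf114, Rnf187 and Rnf44 over the other 6 libraries, and 11 members had a mean of 100 RPM or more. Rnf10, a ligase of ribosomal proteins, ran from 201 RPM in NC3 to 339 RPM in HC3, with the groups overlapping. Germline members were low: Rnf17, Rnf212, Rnf32, Rnf151 and Rnf138rt1 had a highest value of 1.56 RPM, and Rnf138rt1 can share reads with its parent Rnf138. To 12 members no role was assigned: Rnf141, Rnf157, Rnf208, Rnf214, Rnf215 and Rnf219 had a mean of at least 1 RPM and were not called, Rnf39, Rnf223, Rnf222 and Rnf112 lay under it, and Rnf224 and Rnf212b were at 0 in all 7 libraries. A count of 0 there allows up to 0.128 to 0.207 RPM. Rnf223 was called lower without NC3, at values under 1.1 RPM in every library. Rnf8 and Rnf170 were not analysed here.

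At a mean of 1 RPM or more, 32 were higher and 29 lower in hypercapnia by limma's log2 fold change, with a median of 0.02, whereas 62.1% of all such genes were higher with a median of 0.16. Without NC3, 19 members were higher and 42 lower with a median of -0.25, against 56.6% of all genes lower with a median of -0.07. The member median minus that of all genes was thus -0.142, and -0.186 without NC3, on the log2 scale, values given as descriptions with no test. Under median-of-ratios scaling the 2 medians were -0.0952 and 0.04, under quantile normalization -0.11 and -0.01, by edgeR with a filter -0.15 and -0.01, and by DESeq2 -0.19 and -0.04. The scaling thus moved the median of all genes by more than 0.1 and turned that of the members from just above 0 to under 0, while the members stayed under all genes in each.

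Summed over all 80 members, Rnf reads made up 3819.7, 3757 and 3612 RPM across NC1 to NC3 and 3402, 3476, 3392 and 3313 RPM across HC1 to HC4. Every hypercapnia sum was under every normocapnia sum, a difference of -8.94% between means of 3729.5 ± 107 (SD, n = 3) and 3396 ± 66.7 RPM (SD, n = 4), in which abundant members weigh most. NC3 owed its place above the hypercapnia libraries, here and in the signaling group below, to the single member Rnf115. Rnf115 was at 469 RPM in NC3, 132 and 128 RPM in NC1 and NC2 and 110 to 139 RPM in hypercapnia. With median-of-ratios scaling the sums were 3004, 3778 and 5155.5 in normocapnia and 3418, 3567, 2979.6 and 2887 in hypercapnia, which overlap. The signaling group (1262, 1125 and 1329.5 RPM against 940.3, 1022, 1122 and 1042 RPM) and the chromatin group (804, 689 and 697 RPM against 630.3, 629.6, 646 and 635 RPM) were also apart in RPM, the former narrowly, and overlapped after median-of-ratios scaling. The other groups overlapped on both scales.

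**Figure D5:**
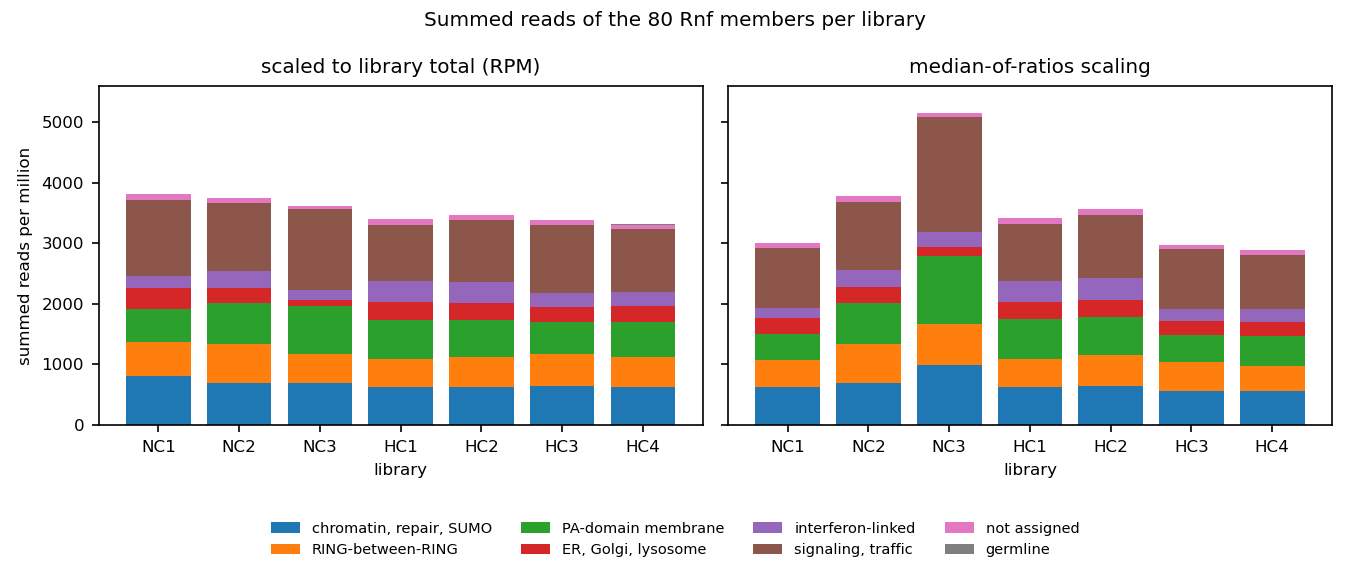
Summed reads of the 80 members in each library, stacked by role, scaled to the library total (left, RPM) and by median of ratios (right), with bars starting at 0. On the left the 4 hypercapnia bars (3313 to 3476) lie under the 3 normocapnia bars (3612 to 3819.7), and on the right NC3 rises to 5155.5 and NC1 falls among the hypercapnia bars.

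Within normocapnia, the median ratio of the highest to the lowest library over the 61 members was 2.23, and 38 members spanned 2-fold or more. Between NC1 and NC2 alone the median ratio was 1.40. Within the 4 hypercapnia libraries it was 1.45, and 15 members spanned 2-fold or more. These ratios are over different numbers of libraries and are not compared. Over all genes NC1 and NC2 correlated at r = 0.887 on the log2 scale, less than any pair of hypercapnia libraries (r from 0.925 to 0.993). Both NC1 (r from 0.905 to 0.958) and NC2 (0.902 to 0.959) correlated more with each of the 4 hypercapnia libraries than NC1 and NC2 did with each other. NC2 was closest to HC1 and HC2 (r = 0.958 and 0.959) and NC1 to HC3 (0.958). The hypercapnia libraries fell into 2 close pairs, HC1 with HC2 and HC3 with HC4, whose reads differed by a chi-square per degree of freedom of 24.6 and 27.3, against 105 to 134.5 across the pairs. The labels name no batch for these pairs.

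Genes that act with the members were taken from a list of 82, of which 73 were in the table. Of these, 4 were called lower and none higher, 5.48% beside the 2.57% of all genes, or 4 of 69 (5.80%) beside 4.75% at a mean of 1 RPM or more, and none passed adjustment by limma (before adjustment 1114 of all genes passed 0.05). Bmi1, the partner of Rnf2 in Polycomb repressive complex 1, was the only call with all 7 libraries among 17 Polycomb and H2B partners. It measured 42.3, 32.0 and 39.6 RPM across NC1 to NC3, against 21.7, 20.9, 30.7 and 23.0 RPM across HC1 to HC4 (log2 fold change of -0.64 ± 0.17 (SE), -0.61 without NC3, and a limma adjusted p of 0.827). Among 14 related RING ligases, Znrf2 measured 54.3, 37.4 and 104 RPM across NC1 to NC3, against 27.1, 24.6, 31.2 and 24.9 RPM across HC1 to HC4 and Rlim, the relative of Rnf6 that degrades cofactors of LIM homeodomain proteins, 193, 143 and 249 RPM across NC1 to NC3, against 116, 107, 142 and 123 RPM across HC1 to HC4. Their log2 fold changes were -1.12 ± 0.35 (-0.73 without NC3) and -0.65 ± 0.21, with adjusted p = 0.915 for each by limma. Znrf3, the relative of Rnf43 that also removes Frizzled, was the only call among 10 Wnt partners with all 7 libraries and measured 39.4, 22.3 and 24.2 RPM across NC1 to NC3, against 15.1, 14.8, 18.6 and 20.2 RPM across HC1 to HC4 (log2 fold change of -0.67 ± 0.23 (SE), -0.77 without NC3, and a limma adjusted p of 0.915). In all 4 the groups did not overlap.
Without NC3, 7 partners were called, all lower, 9.59% beside 2.57% of all genes, or 7 of 69 (10.1%) beside 4.65% at a mean of 1 RPM or more. They were Bmi1, Znrf2 and Znrf3 and, newly, the TGF-beta mediator Smad4 (-0.33 ± 0.54, -0.997 without NC3), the BRCA1-A subunit Uimc1 (-0.07 ± 0.48, -0.67 without NC3), the tankyrase Tnks (-0.14 ± 0.38, -0.60 without NC3), one of the Wnt partners, and the RING ligase Arih2 (0.42 ± 0.81, -0.60 without NC3), each lowest in NC3 with all 7 libraries, while Rlim, at -0.45, was not called. A further 2 partners had groups apart with all 7 libraries below the fold limit, the RING ligase Arih1 (-0.35 ± 0.11, -0.40 without NC3) and Ikbkg (-0.37 ± 0.14, -0.44 without NC3), the regulatory subunit NEMO that binds the linear chains made by Rnf31. With these, 6 of 73 partners were apart (8.22%, beside 4.83% of all genes), and 6 of 69 at a mean of 1 RPM or more (8.70%, beside 7.72%). Without NC3 it was 13 of 73, all lower (17.8%, beside 10.8% of all genes), or 13 of 69 at a mean of 1 RPM or more (18.8%, beside 16.1%). With all 7 libraries no gene was called among the 6 DNA break, 6 TGF-beta, 10 amino acid sensing, 4 cullin and 6 linear ubiquitin partners. The median log2 fold change of the 69 partners at a mean of 1 RPM or more was 0.06, and -0.15 without NC3.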

How the data were processed

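Sorted Pax7-GFP cells of 3 normocapnia and 4 hypercapnia libraries were profiled with an AmpliSeq mouse transcriptome panel on an Ion S5 system. The authors deposited 1 table of RPM, reads scaled to each library's total. The aligner was not given in the sources used here, nor was the genome build, and the authors tested expression with the Transcriptome Analysis Console, with thresholds of p under 0.05 and a fold change above 1.5. Whole reads were recovered from the RPM steps: 100% of values were whole within 0.05 reads. Totals ran from 14527445 to 23388710 reads. Intervals and floors cover counting error only.

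limma 3.58.1 (R 4.3.3) was fitted on log2(RPM + 1) over all 23930 genes, with no filter and no covariate, and p-values were adjusted over all genes. The recovery and the fits were tested on simulated data. With a wide simulated spread between libraries (dispersion 0.4), limma called 25% of 2-fold changes and 5.88% of unchanged genes. With a narrow spread (dispersion 0.02) it called 91.5% and 0.0163%. Which spread is nearer to these libraries was not tested. edgeR 4.0.16 and DESeq2 1.42.0 ran on the recovered reads as alternatives, with other pseudocounts, filters, scalings, a replicate block and the leaving out of each library. The members, their roles, partner list and marker lists were chosen with earlier results of these data known, and the motif and CpG search after values had been seen. Named were every member called, members apart at a mean of 1 RPM or more, 16 members measured for their roles, the 5 most abundant members and every partner called. In all 81 symbols matched the rule, of which 1 is not reported here and was left out of every member count and sum. Other members are given to account for all 80. The planned search of protein sequences was not run. Promoters came from RefSeq (GRCm38.p6).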

Additional observations from a re-analysis of the deposited data

Results flagged for a closer look

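A pair of members had 1 hypercapnia library far from the other 3, by Dixon's gap over range at the 95% level, among 22 named members tested. Rnf168 had a ratio of 0.904, with HC3 at 21.4 RPM and the other 3 libraries at 18.4 to 18.7 RPM. Rnf146 had a ratio of 0.863, with HC3 at 32.8 RPM and the others at 46.7 to 48.9 RPM. Chance alone flags about 1 group in 20, so 2 in 22 is close to that rate. Neither member was called in the comparison of the groups.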

How the results depend on the processing

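Rnf220 was called in 11 of 17 alternatives and Rnf103 in 4, and no named gene that was called changed its sign. Over the named genes 395 values kept their side of the threshold, 36 calls were lost and 7 gained. The 2 members called, both lower, became 5, all lower, under DESeq2, and 1, lower, in each of 4 other fits: this was Rnf220 with a filter at a mean of 1 RPM (4.46% of all genes called), with a pseudocount of 5 RPM (1.83%) and with a prior variance that follows the mean (580 of 23930 genes), but Rnf139 with median-of-ratios scaling (2.55%). Quantile normalization called Rnf139 and Rnf152 (2.90% of genes), so both scalings lost Rnf220 and Rnf103. Their limma p rose above 0.05 while the fold limit was still passed. The log2 fold changes of Rnf220 and Rnf103 were -1.05 and -0.91 with median-of-ratios scaling and -0.87 and -1.14 after quantile normalization. Leaving out 1 library gave 0 to 7 calls, 0 to 3 of them higher and 0 to 4 lower: 0 without HC2, 1 without HC1 (Rnf103), HC3 (Rnf220) or HC4 (Rnf208), 6 without NC1 (Rnf220, Rnf103, Rnf150 and Rnf216 lower, Rnf26 and Rnf219 higher) and 7 without NC2 (Rnf220, Rnf14, Rnf138 and Rnf139 lower, Rnf31, Rnf135 and Rnf213 higher). Over all genes the share called moved likewise, from 2.57% to 1.57% without HC2, 1.61%, 2.39% and 1.99% without HC1, HC3 and HC4, 8.32% without NC1 and 5.04% without NC2. The median log2 fold change of the members, 0.02, was -0.19 under DESeq2, -0.15 under edgeR with and without a filter, -0.11 after quantile normalization and -0.0952 with median-of-ratios scaling, and lay between -0.25 (without NC3) and 0.10 (without NC1) when 1 library was left out. The 4 partners called became 7 under DESeq2 (6.25% of all genes called) and under edgeR with no filter (4.38%), 2 with a filter at a mean of 1 RPM (4.46%) and 2 with a pseudocount of 5 RPM (1.83%), and 0 to 12 without 1 library (0 without HC2, 2 without HC1, 7 without NC3, 12 without NC2). The cause of these shifts was not tested. The lowest adjusted p of any member ran from 0.180 to 0.961 over the alternatives.

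The replicate number served as a block in 1 fit, which leaves out HC4 for want of a partner. It called 3 members, with 2 higher (Rnf135 and Rnf213) and 1 lower (Rnf220), or 3.75% beside 2.50% of all genes. Deviations of same-numbered libraries correlated at -0.349, 0.503 and -0.0443, so the numbers were not taken as pairs. Depth limits the low members: values near 0.2 RPM rest on about 3 reads.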
